A study of Mus musculus with 4 samples.

Results

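The 35 genes described here are antiviral genes known to be induced by type I interferon, taken from a fixed list of symbols and read from the probe sets whose platform annotation names that gene alone. A value was obtained for 33 of the 35, out of 19938 genes on the array. Isg15 shares its probe set with Gm9706 and is given separately, and Ifi44 was not analysed here. Levels are log2 signals after RMA (robust multi-array average, which sets the arrays to a common scale), and differences are in log2 units, where 1 is 2-fold.

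The 4 samples were macrophages grown from bone marrow of C57BL/6N mice in 10 ng/mL M-CSF and harvested on day 9. M1 cells were stimulated for 48 h with 10 ng/mL interferon-γ, and M2 cells for 48 h with 20 ng/mL interleukin-4 (IL-4). Each phenotype was incubated for 24 h with vehicle or with 10 ng/mL interleukin-1α (IL-1α), an inflammatory cytokine that signals through MyD88 and NF-κB. Each of the 4 groups holds 1 array, so no value below has a replicate error. The labels do not say how many mice gave the marrow, or whether the cultures were separate. Macrophages without a polarising cytokine were not analysed here, so a difference between M1 and M2 has no unpolarised reference.

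Interferon-α and interferon-β bind the receptor Ifnar1 and Ifnar2, whose kinases Jak1 and Tyk2 activate Stat2. Stat2 and Irf9 are parts of the factor ISGF3, which binds the interferon-stimulated response element (ISRE) in the promoters of antiviral genes. Interferon-γ uses another receptor and acts mainly through gamma-activated sites (GAS), yet it also induces many genes of the type I set in macrophages. The products sense foreign RNA, bind or degrade it, block translation or deplete nucleotides that a virus needs.

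All 9 macrophage markers measured, among them Adgre1, Csf1r, Cd68 and Lyz2, reached the floor on the M1 arrays and 8 did so on all 4 arrays. A floor of 7.617 on the log2 scale was used throughout, which is the middle value of the genes' signals pooled over the arrays. Aif1 read under it in M2, and 3 of the 9 markers were at least 2-fold lower in M2 under vehicle. None of the 6 NK, 4 T or 3 B cell markers measured reached the floor on any array. Of the 6 markers measured for plasmacytoid dendritic cells, which make much type I interferon, 2 reached it on each array (Tcf4 and Cox6a2), with sums of 46.97 to 47.63, and of 7 stromal markers 3 did, with sums of 50.16 to 50.80. Of 7 neutrophil markers, 4 reached the floor in M2 and 0 in M1, with summed log2 signals of 47.98 and 48.43 on the M1 arrays and 54.00 and 52.88 on the M2 arrays. Of 5 dendritic cell markers, 2 reached the floor in M1 alone (Clec9a and Xcr1) and 1 in M2 alone (Zbtb46). Clec9a read 9.97 in M1 vehicle and 5.62 in M2 vehicle, and Xcr1 read 8.44 and 6.49. Zbtb46 went the other way, with 7.46 and 7.95, and Flt3 and Itgae read under the floor on every array. The list's summed log2 signals were 39.02 and 38.54 in M1 and 33.34 and 32.98 in M2. The neutrophil sums were thus higher in M2, opposite to most of the antiviral genes, and the dendritic sums were lower. Of all 19938 genes, 9845 reached the floor in M1 vehicle and 10099 in M2 vehicle. The part of either list in the results was not tested. In such bulk RNA, fewer cells of a type and less RNA per cell cannot be told apart.

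The promoters of 7 antiviral genes are shown because these differed most between the phenotypes or with IL-1α among the genes with a RefSeq window. RefSeq windows were not found for Mx1 and Mx2, which also differed widely. A sequence feature tied to interferon can be seen in some of the promoters. Each promoter is a RefSeq window of build GRCm38.p6, from 250 bases before to 50 bases after an annotated start. It is written 5′ to 3′ on the gene's strand. Capitals mark the ISRE core, which is GAAA, any 2 bases and GAAA again, searched on both strands. The Ifit3 window lies at chr19:34583279-34583578 (plus strand), Ifit1 at chr19:34640639-34640938 (plus), Ifit2 at chr19:34550444-34550743 (plus), Cmpk2 at chr12:26468965-26469264 (plus), Rsad2 at chr12:26456403-26456702 (minus), Oas3 at chr5:120777610-120777909 (minus) and Oasl1 at chr5:114922990-114923289 (plus).
Ifit3: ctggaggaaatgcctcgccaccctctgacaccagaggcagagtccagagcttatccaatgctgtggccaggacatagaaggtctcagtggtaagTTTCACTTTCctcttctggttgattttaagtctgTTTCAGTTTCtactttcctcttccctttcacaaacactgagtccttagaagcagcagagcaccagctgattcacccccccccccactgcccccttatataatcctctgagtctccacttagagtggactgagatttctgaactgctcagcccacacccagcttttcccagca
Ifit1: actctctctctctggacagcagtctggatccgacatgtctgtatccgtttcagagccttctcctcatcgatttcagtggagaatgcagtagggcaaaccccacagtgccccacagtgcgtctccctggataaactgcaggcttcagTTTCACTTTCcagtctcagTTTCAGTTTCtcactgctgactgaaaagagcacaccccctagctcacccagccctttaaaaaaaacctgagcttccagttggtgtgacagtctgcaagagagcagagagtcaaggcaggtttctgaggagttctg
Ifit2: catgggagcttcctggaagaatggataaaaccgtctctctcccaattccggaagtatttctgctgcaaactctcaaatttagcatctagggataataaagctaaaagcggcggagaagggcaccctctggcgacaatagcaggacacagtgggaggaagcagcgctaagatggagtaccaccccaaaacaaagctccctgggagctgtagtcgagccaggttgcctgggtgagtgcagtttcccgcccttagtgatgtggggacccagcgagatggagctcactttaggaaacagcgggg
Cmpk2: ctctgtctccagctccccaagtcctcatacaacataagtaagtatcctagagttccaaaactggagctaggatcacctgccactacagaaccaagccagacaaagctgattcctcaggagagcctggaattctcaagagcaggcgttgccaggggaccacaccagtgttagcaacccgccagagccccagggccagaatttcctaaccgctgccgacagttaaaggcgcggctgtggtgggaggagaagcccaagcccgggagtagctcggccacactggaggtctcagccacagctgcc
Rsad2: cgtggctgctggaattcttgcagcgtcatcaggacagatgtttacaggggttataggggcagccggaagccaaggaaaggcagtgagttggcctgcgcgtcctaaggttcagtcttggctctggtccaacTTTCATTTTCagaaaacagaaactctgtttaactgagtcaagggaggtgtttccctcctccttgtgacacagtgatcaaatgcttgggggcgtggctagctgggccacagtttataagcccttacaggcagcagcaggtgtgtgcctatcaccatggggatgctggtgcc
Oas3: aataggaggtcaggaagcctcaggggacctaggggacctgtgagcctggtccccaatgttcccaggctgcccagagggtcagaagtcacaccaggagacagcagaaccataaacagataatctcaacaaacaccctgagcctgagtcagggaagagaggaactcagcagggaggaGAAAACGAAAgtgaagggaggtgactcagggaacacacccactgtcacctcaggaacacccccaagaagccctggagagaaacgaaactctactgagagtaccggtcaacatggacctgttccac
Oasl1: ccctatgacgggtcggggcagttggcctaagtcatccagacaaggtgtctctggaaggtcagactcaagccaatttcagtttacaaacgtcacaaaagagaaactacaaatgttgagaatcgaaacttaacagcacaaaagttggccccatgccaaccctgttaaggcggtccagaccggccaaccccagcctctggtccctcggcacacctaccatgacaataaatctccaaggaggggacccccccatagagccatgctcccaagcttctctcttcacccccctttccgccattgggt

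Ifit3 and Ifit1 each held 2 ISRE cores before the start, with the spans -156 to -147 and -122 to -113 in Ifit3, and -104 to -95 and -85 to -76 in Ifit1. The letters of the first core, TTTCACTTTC, and of the second, TTTCAGTTTC, were the same in both genes. Rsad2 held 1 core and Oas3 held 1, and neither Cmpk2, Oasl1 nor either of the 2 windows annotated for Ifit2 held any. RefSeq windows were found for 25 of the 35 genes, and an ISRE core was present in 11 of them (44.0%), against 3.99% of all 27025 genes with a window. The GAS core TTCNNNGAA was present in 7 of 25 (28.0%, against 9.55% of all genes), and the κB consensus in 5 of 25 (20.0%, against 9.55%). The genes with a κB match were Ifit2, Oas3, Oasl1, Isg20 and Bst2. In Bst2 the GAS match overlaps an ISRE core and the κB match, which do not overlap each other, and in Ifit2 the GAS and κB matches overlap. A match describes letters in a window, and a gene without one may hold its element elsewhere.

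The first comparison set M2 against M1 under vehicle. Lower signals in M2, by 2-fold or more, were read for 32 of the 33 genes, a direction and size reached by 6.83% of 10489 genes, and 1, Ifi27, was at least 2-fold higher, as were 7.03% of genes. The median difference was -2.82, against 0.01 for all genes at the floor. All 33 read above the floor in M1 vehicle, between 8.72 and 13.68, and 28 did so in M2 vehicle. The 5 under the floor in M2 vehicle were Ifit1, Ifit2, Ifit3, Oasl1 and Mx2, whose fold changes therefore rest on a signal not shown to be above background. On the M1 vehicle array, whose brightest probe set read 14.40, 19 of the 33 lay at most 2 log2 units below that, where 2.45% of all genes lie and where saturation can compress a difference.

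**Figure D1:**
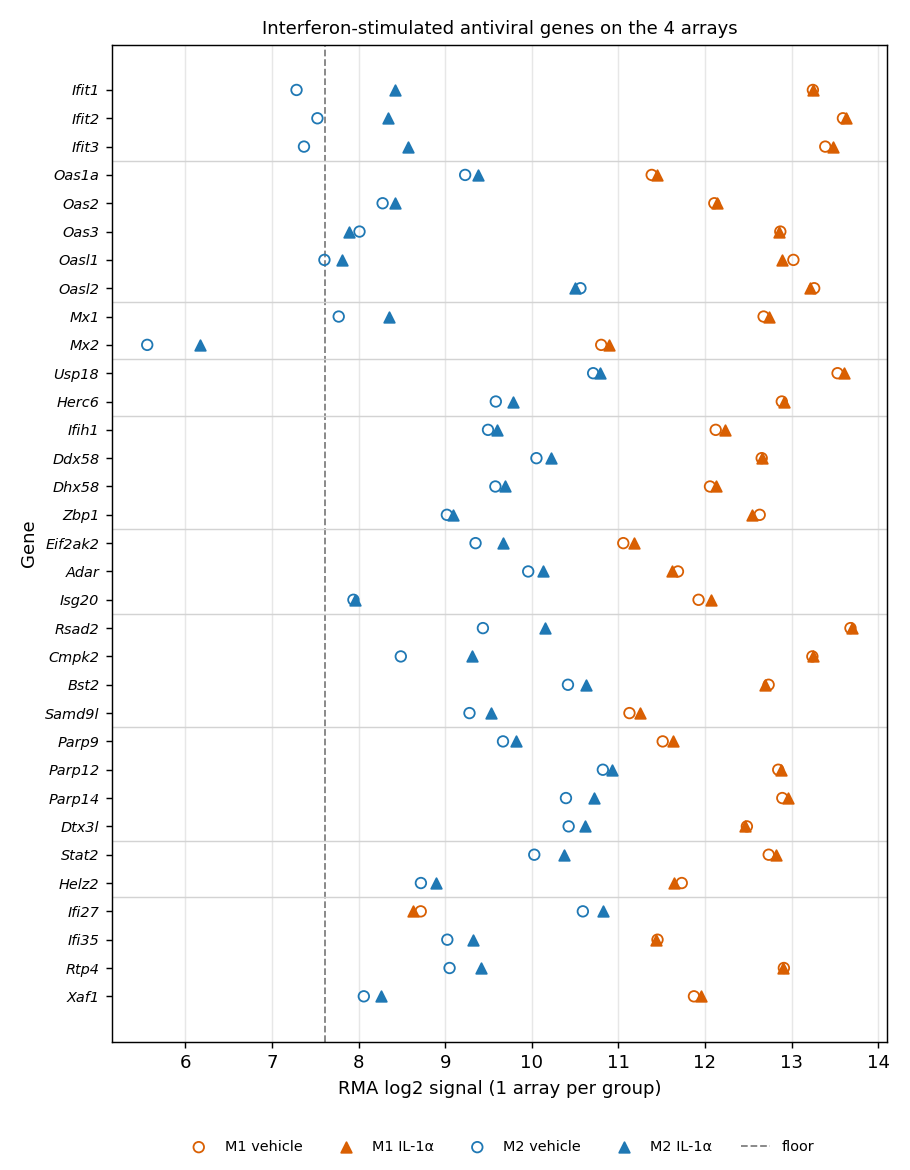
Log2 signal (x axis) of the 33 genes (y axis, grouped by role with grey lines between roles) on the 4 arrays, with orange for M1, blue for M2, circles for vehicle, triangles for IL-1α and a dashed line at the floor of 7.617. The M1 marks of a gene nearly coincide and lie to the right of its M2 marks in each row except Ifi27.

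The IFIT proteins bind viral RNA and block its translation. Ifit1, which recognises RNA whose cap lacks ribose methylation, read 13.25 in M1 vehicle, 13.25 in M1 IL-1α, 7.28 in M2 vehicle and 8.42 in M2 IL-1α. Ifit2 read 13.59, 13.63, 7.52 and 8.34 on the same arrays, and its relative Ifit3 read 13.39, 13.48, 7.37 and 8.57. In each of these genes both M1 arrays lay far above both M2 arrays, and the M2 IL-1α array lay above the M2 vehicle array. Under vehicle the M2 minus M1 difference was -6.07 for Ifit2, -6.02 for Ifit3 and -5.96 for Ifit1, the 3 most negative of the 33. With M2 vehicle signals raised to the floor, these differences were -5.98, -5.77 and -5.63. Probe sets of such related genes can cross-hybridise, so values by member are uncertain.

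The Mx GTPases also differed widely. In mice with intact alleles these proteins trap viral nucleoproteins. RefSeq annotates both Mx1 and Mx2 as transcribed pseudogenes in C57BL/6J, the strain of its reference genome. Their signals here are therefore read as RNA levels only, which do not separate synthesis from decay. Mx1 read 12.68 in M1 vehicle, 12.74 in M1 IL-1α, 7.77 in M2 vehicle and 8.35 in M2 IL-1α. Mx2 read 10.80, 10.90, 5.56 and 6.17, so neither M2 array reached the floor. The M2 minus M1 difference under vehicle was -4.91 for Mx1 and -5.24 for Mx2, or -3.18 for Mx2 with its M2 signal raised to the floor.

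The OAS family includes enzymes that make oligoadenylates, which activate RNase L, and its differences spread widely. Oasl1, which in mice limits translation of Irf7, read 13.02 in M1 vehicle, 12.89 in M1 IL-1α, 7.61 in M2 vehicle and 7.81 in M2 IL-1α. Oas3 read 12.87, 12.86, 8.01 and 7.89, and Oas2 read 12.11, 12.14, 8.28 and 8.42. The M2 minus M1 differences of these 3 genes under vehicle were -5.41, -4.86 and -3.83. Oasl2 and Oas1a kept a signal well above the floor in M2. Oasl2 read 13.26, 13.21, 10.56 and 10.50, and Oas1a read 11.39, 11.44, 9.23 and 9.38, with vehicle differences of -2.70 and -2.15. A further probe set shared by Oas1a and Oas1g gave -2.25. The range within the family, from -5.41 to -2.15, shows that related genes did not share 1 size of difference on these arrays.

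Viperin (Rsad2) makes a nucleotide that stops viral polymerases, and Cmpk2 is a nucleotide kinase encoded next to it. Rsad2 read 13.68 in M1 vehicle, 13.69 in M1 IL-1α, 9.44 in M2 vehicle and 10.15 in M2 IL-1α. Cmpk2 read 13.24, 13.25, 8.49 and 9.30. The vehicle differences were -4.25 for Rsad2 and -4.75 for Cmpk2, and both genes were above the floor on all 4 arrays. Bst2 (tetherin), which holds budding virus at the cell surface, and Samd9l, an inhibitor of translation, had M2 minus M1 differences of -2.32 and -1.85.

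The cytosolic sensors spanned a narrower range. Ifih1 (MDA5) and Ddx58 (RIG-I) detect viral double-stranded RNA and pass the signal to Mavs, Dhx58 (LGP2) modulates them, and Zbp1 senses Z-form nucleic acids. Ifih1 read 12.12 in M1 vehicle, 12.23 in M1 IL-1α, 9.50 in M2 vehicle and 9.60 in M2 IL-1α, and Ddx58 read 12.65, 12.66, 10.05 and 10.23. Their vehicle differences were -2.63 and -2.60, that of Dhx58 was -2.48 and that of Zbp1 was -3.61. All 4 sensors stayed above the floor in M2, between 9.02 and 10.05 under vehicle.

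The ISG15 system attaches a ubiquitin-like protein to other proteins. The shared probe set of Isg15 and Gm9706 read 10.63 in M1 vehicle, 10.62 in M1 IL-1α, 6.52 in M2 vehicle and 6.50 in M2 IL-1α. Usp18, which removes ISG15 and blocks signalling at Ifnar2, read 13.53, 13.60, 10.71 and 10.79, and Herc6, the mouse ISG15 ligase, read 12.89, 12.92, 9.58 and 9.79. The vehicle differences were -2.82 for Usp18, -3.30 for Herc6 and -4.11 for the shared probe set.

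Genes acting directly on RNA included the smallest differences in the set. Eif2ak2 (PKR), the kinase that halts translation when it binds double-stranded RNA, read 11.06 in M1 vehicle, 11.18 in M1 IL-1α, 9.35 in M2 vehicle and 9.66 in M2 IL-1α. Adar, which edits adenosine in such RNA, read 11.69, 11.62, 9.96 and 10.13. Their vehicle differences were -1.71 and -1.73. Adar also has a promoter that is active without interferon, as background. The exonuclease Isg20 differed more, with 11.93, 12.07, 7.94 and 7.96 on the same arrays and a vehicle difference of -3.99.

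The ADP-ribosyltransferases and their partner Dtx3l, a ubiquitin ligase that works with Parp9, differed by similar amounts. The vehicle differences were -1.84 for Parp9, -2.02 for Parp12, -2.50 for Parp14 and -2.06 for Dtx3l, and their levels in M2 vehicle lay between 9.67 and 10.82. Parp14, Dtx3l and Parp9 are consecutive protein-coding genes in RefSeq's GRCm38.p6 table. The transcription factor Stat2, a part of ISGF3, read 12.74 in M1 vehicle, 12.82 in M1 IL-1α, 10.03 in M2 vehicle and 10.37 in M2 IL-1α, a vehicle difference of -2.71. The helicase coactivator Helz2 differed by -3.01.

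Among the other interferon-induced genes, Rtp4, a chaperone of membrane receptors, differed by -3.86, Xaf1, a promoter of apoptosis, by -3.81, and Ifi35 by -2.43. Ifi27, a small hydrophobic membrane protein, went the other way. It read 8.72 in M1 vehicle, 8.63 in M1 IL-1α, 10.59 in M2 vehicle and 10.82 in M2 IL-1α, so both M2 arrays lay above both M1 arrays, by 1.87 (3.66-fold) under vehicle and 2.19 with IL-1α. It was above the floor on all 4 arrays.

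With IL-1α on both sides, 32 of 33 genes again had signals lower in M2 by 2-fold or more (6.06% of 10479 genes did) and Ifi27 was at least 2-fold higher (8.15% of genes). The median difference was -2.75. The difference was between -5.29 and -4.82 for the IFIT genes, -4.39 for Mx1, -3.54 for Rsad2 and -3.94 for Cmpk2. Oas3 (-4.96) and Isg20 (-4.11) were slightly further apart than under vehicle.

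**Figure D2:**
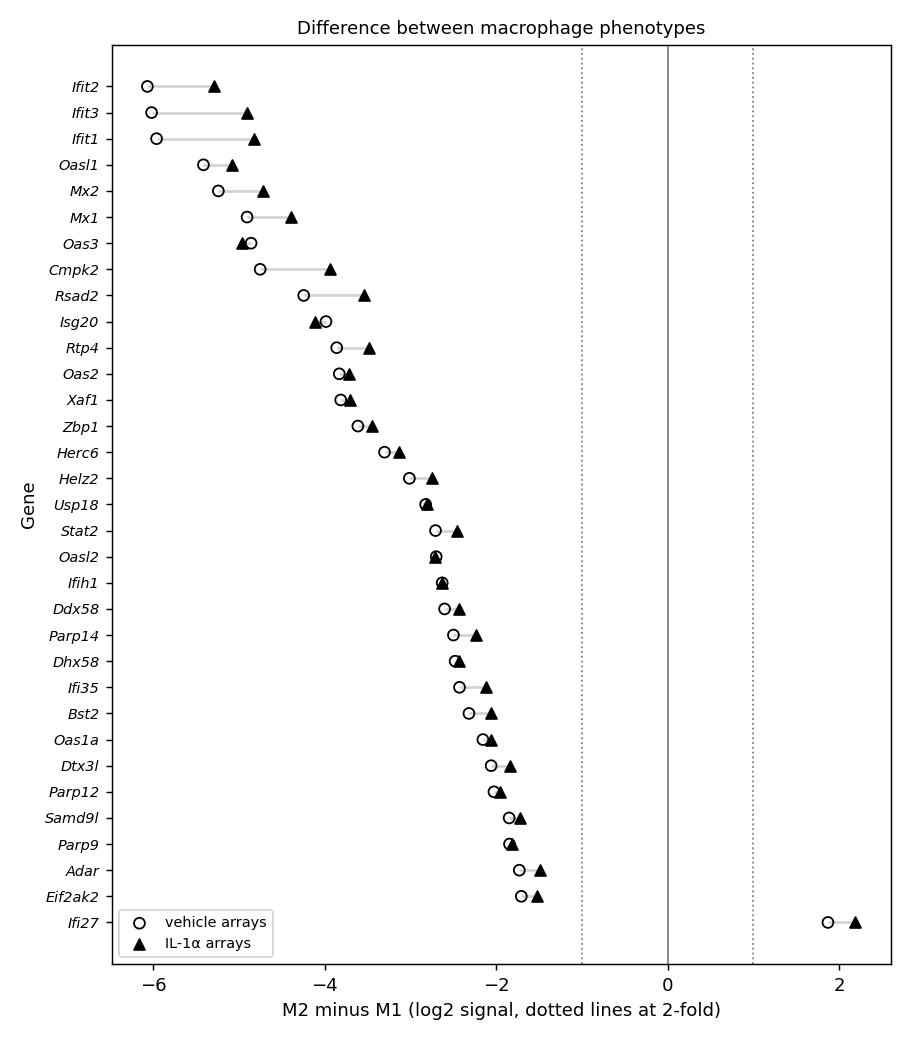
M2 minus M1 difference in log2 signal (x axis) for each of the 33 genes (y axis, ordered by the vehicle value), with circles for the vehicle arrays and triangles for the IL-1α arrays. All genes except Ifi27 lie left of the 2-fold line at -1, and the IFIT, Mx1, Mx2, Cmpk2 and Rsad2 marks are the farthest apart.

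The phenotype difference common to both treatments was tested with a limma model of additive phenotype and treatment terms, fitted on 10625 genes. It called 32 of the 33 genes lower in M2 (29.3% of genes were) and Ifi27 higher (33.2%). The limma adjusted p ranged from 3.74e-13 for Oas3 (-4.91 ± 0.07 SE) to 3.99e-09 for Eif2ak2 (-1.61 ± 0.07 SE), and Ifi27 had 2.69e-09 (2.03 ± 0.09 SE). The SE was 0.18 for Ifit1 and for Ifit3, since their M1 and M2 responses to IL-1α departed most from additivity. With a robust prior, these 2 genes lost the call (limma adjusted p = 0.067 for Ifit1 and 0.0652 for Ifit3) and 30 genes kept it as lower. The model has 1 residual degree of freedom per gene and takes its error from how far the 4 values of a gene stray from additivity, which is no spread between cultures.

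The second comparison asked whether IL-1α moved these genes in M1. None of the 33 differed by 2-fold or by 1.5-fold, and of 10012 genes 0.0% reached 2-fold in either direction, 0.02% were 1.5-fold higher and 0.04% 1.5-fold lower. The differences ran from -0.13 for Oasl1 to 0.14 for Isg20, with a median of 0.03 and 22 of 33 above 0 (49.2% of all genes were above 0). The SD of this difference over all genes at the floor was 0.11. Ifit1 differed by 0.00, Rsad2 by 0.01, Cmpk2 by 0.01 and Mx1 by 0.07. On each M1 array 19 of the 33 lay at most 2 log2 units below the brightest probe set, which limits what a flat reading shows for them. At most 1 unit below it lay 3 in M1 vehicle and 4 in M1 IL-1α. Among genes further down, Mx2 differed by 0.10, Eif2ak2 by 0.125 and Ifi27 by -0.09. In M2 these genes differed by 0.61 (under the floor on both arrays), 0.31 and 0.23. The part of saturation in the M1 readings was not tested.

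In M2, IL-1α was accompanied by higher signals in a subset. Of the 32 genes at the floor on an M2 array, 2 passed 2-fold upward with IL-1α, Ifit3 (1.20) and Ifit1 (1.14), as did 0.35% of 10284 genes. Both read under the floor in M2 vehicle, and with those signals raised to it the differences were 0.96 and 0.81, so neither passed 2-fold. At 1.5-fold there were 5, with Cmpk2 (0.82), Ifit2 (0.81) and Rsad2 (0.71) added, against 0.875% of genes. Ifit2 also started under the floor (0.72 from the floor), and Cmpk2 and Rsad2 did not. Mx1 lay just under that line at 0.58, and Mx2, at 0.61, was under the floor on both arrays. No gene of the 33 was 1.5-fold lower, nor was any other gene (0.0%). The remaining 26 genes, parted from these 7 at 0.5 after the values were seen, ran from -0.12 (Oas3) to 0.36 (Rtp4) with a median of 0.18, which leaves a gap of 0.22 between Rtp4 and Mx1.

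These 7 genes come from 3 places in the genome. Ifit2 and Ifit3 are neighbours and Ifit1 lies beyond 3 further genes on chromosome 19, Rsad2 and Cmpk2 are neighbours on chromosome 12, and Mx1 and Mx2 lie on chromosome 16 with the gene Fam3b between them. Adjacency was not limited to these genes, since Oasl2 and Oasl1, Oas2 and Oas3, and Parp14, Dtx3l and Parp9 are also neighbours, and these ran from -0.12 to 0.32. Ifit3b, another gene of the same IFIT cluster, read 10.01 in M1 vehicle but only 4.33 in M2 vehicle and 4.43 in M2 IL-1α, both under the floor. Of the 5 genes at least 1.5-fold higher, Ifit1, Ifit3 and Rsad2 held an ISRE core in the windows above, and Ifit2 and Cmpk2 did not. Over all listed genes with a window, 11 of 25 (44.0%) held one. Oas1a and Bst2 held 2 cores each, as Ifit1 and Ifit3 did, and differed by 0.15 and 0.21 in M2. Ifih1, Ddx58, Eif2ak2 and Stat2 held 1 each and differed by 0.11 to 0.34. Oas3, with 1 core, differed by -0.12.

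The other genes can be grouped by role. The 4 sensors differed by 0.07 to 0.17 in M2, and Ifih1 differed by 0.11 in M1 and 0.11 in M2. The PARP group with Dtx3l differed by 0.10 to 0.32, led by Parp14. Stat2 was at 0.34, Eif2ak2 at 0.31, Ifi35 at 0.29 and Ifi27 at 0.23. The OAS family had 3 genes above 0 and 2 below, with Oasl1 at 0.20 and Oasl2 at -0.06. The shared Isg15 probe set was at -0.02. Over all genes at the floor the median in M2 was 0.05 and 69.3% lay above 0, so the list's 30 of 32 above 0 and its median of 0.20 stand against a background that also leans upward. That lean depends on the scaling, with 56.3% of genes above 0 after loess centring and 46.0% after quantile normalisation on top of RMA, and 29 of the 32 above 0 in each.

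**Figure D3:**
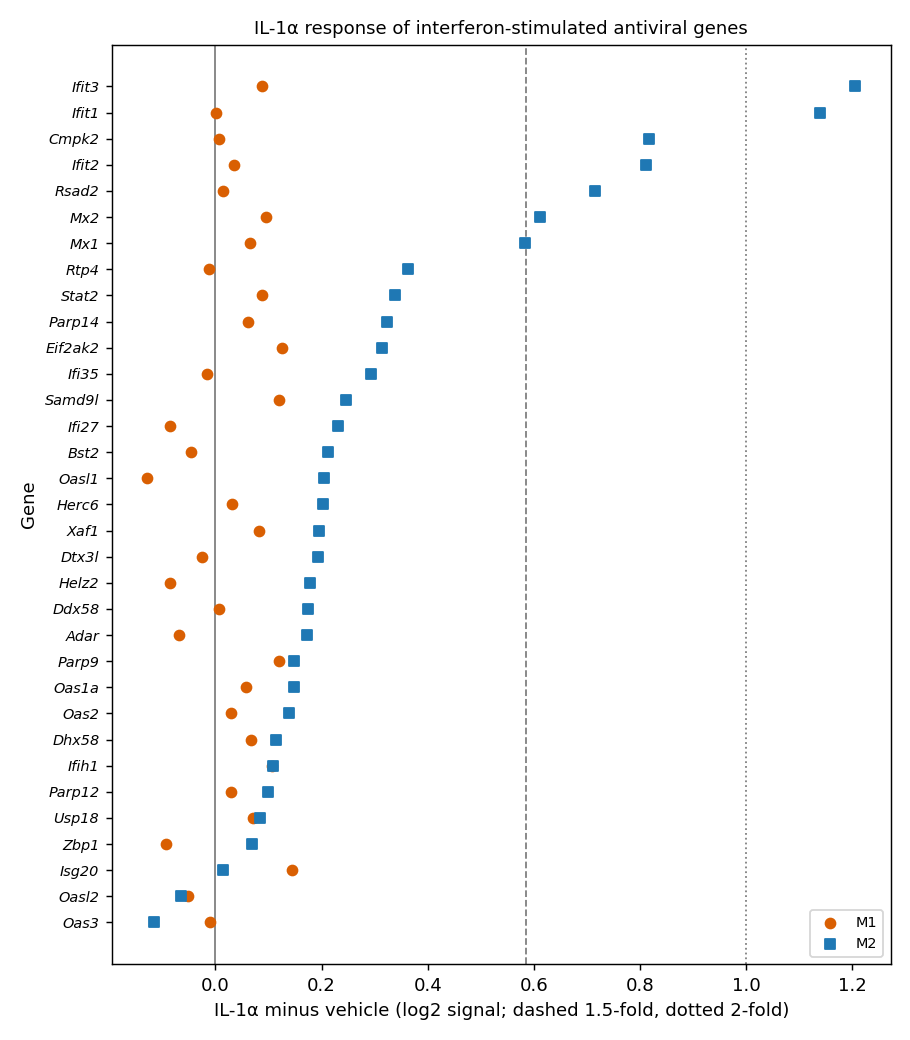
IL-1α minus vehicle in log2 signal (x axis) for each of the 33 genes (y axis, ordered by the M2 value), with orange circles for M1 and blue squares for M2, a dashed line at 1.5-fold and a dotted line at 2-fold. The M1 circles lie between -0.13 and 0.14, and the squares of Ifit3, Ifit1, Cmpk2, Ifit2, Rsad2, Mx2 and Mx1 lie to the right of the others.

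The design also asks whether the IL-1α response itself differed between phenotypes, taken here as the M2 value less the M1 value. This reached 1 in Ifit1 (1.14) and Ifit3 (1.12), as in 0.32% of 10625 genes, and 1.5-fold in Cmpk2 (0.81), Ifit2 (0.78) and Rsad2 (0.70) as well, against 1.02%. With signals under the floor raised to it, Ifit1 was at 0.81 and Ifit3 at 0.87, so 0 genes reached 1. Mx1 and Mx2 were each at 0.52. In M1 vehicle, Ifit1, Ifit2, Ifit3, Cmpk2 and Rsad2 read 13.24 to 13.68. That is at most 2 log2 units below the brightest probe set, where saturation can compress a difference. Mx1 (12.68) also lay there, and Mx2 (10.80) did not. The part of saturation in this contrast was not tested. The list's median was 0.22 and 30 of 33 were above 0, where 66.1% of all genes were. After loess centring 26 of 33 and 57.7% of genes were above 0, and after quantile normalisation on top of RMA 25 of 33 and 48.3%, with Dhx58, Ifih1, Parp9, Usp18 and, in the latter alone, Oas1a turning below 0. The 3 below 0 were Isg20 (-0.13), Oas3 (-0.10) and Oasl2 (-0.01). With 1 array a group, this contrast could not be tested.

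The limma model did allow a test of an IL-1α effect averaged over M1 and M2, which need not be shared by both. It was called in 0 of the 33 genes and in 0.0% of 10625 genes. The smallest limma adjusted p among the 33 was 0.519, for Ifit3 (0.65 ± 0.18 SE), and it ranged from 0.241 to 1.0 over the alternatives. At an unadjusted p under 0.05 there were 11 of the 33 genes, against 6.08% of all genes. Among the IFIT genes, the M1 difference was at most 0.09 and the M2 difference at least 0.81.

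The interferon pathway itself was read from a list of 49 ligands, receptors, kinases, factors, adaptors and inhibitors, of which 42 were measured and 28 reached the floor under vehicle. Of 13 type I interferon genes measured, 12 read under the floor on every array, and Ifnb1 read 5.98 in M1 vehicle, 5.92 in M1 IL-1α, 5.82 in M2 vehicle and 5.80 in M2 IL-1α. Ifna5, the one at the floor, read 8.42, 8.52, 8.44 and 8.30. In M2, the 13 differed with IL-1α by -0.42 to 0.18, with 10 below 0. These are RNA readings at 1 time after 24 h of IL-1α, and an earlier peak was not measured.

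The receptors differed little between the groups. Ifnar1 read 11.66 in M1 vehicle, 11.70 in M1 IL-1α, 11.62 in M2 vehicle and 11.93 in M2 IL-1α, and Ifnar2 read 12.73, 12.64, 12.69 and 12.70. Ifngr1, a chain of the interferon-γ receptor, was 0.58 higher in M2 under vehicle. By 2-fold or more, 10 of 28 pathway genes were lower in M2 under vehicle and 0 higher (6.83% and 7.03% of all genes), and limma called 16 lower and 2 higher (29.3% and 33.2% of all genes). The 6 largest were Irf7 (-5.73), Socs3 (-2.08), Irf1 (-1.93), Socs1 (-1.73), Ptpn6 (-1.50) and Irf8 (-1.37), which are 3 interferon regulatory factors and 3 inhibitors of cytokine signalling. Irf9, the partner of Stat2 in ISGF3, was at -1.16.

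Irf7, the factor that amplifies interferon and antiviral genes, read 13.79 in M1 vehicle, 13.70 in M1 IL-1α, 8.06 in M2 vehicle and 8.48 in M2 IL-1α. With IL-1α in M2, the largest pathway differences were Socs3 (0.78), Irf7 (0.42), Ikbke (0.33), Ifnar1 (0.31), Tbk1 (0.27) and Irf1 (0.26). Socs3, an inhibitor of cytokine receptors, read 7.39 in M2 vehicle, under the floor, and 8.18 in M2 IL-1α. It was the pathway gene that passed 1.5-fold, and that call rests on a vehicle signal not shown to be above background. In M1 no pathway gene passed 1.5-fold, and the largest difference was Tbk1 (0.16).

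**Figure D4:**
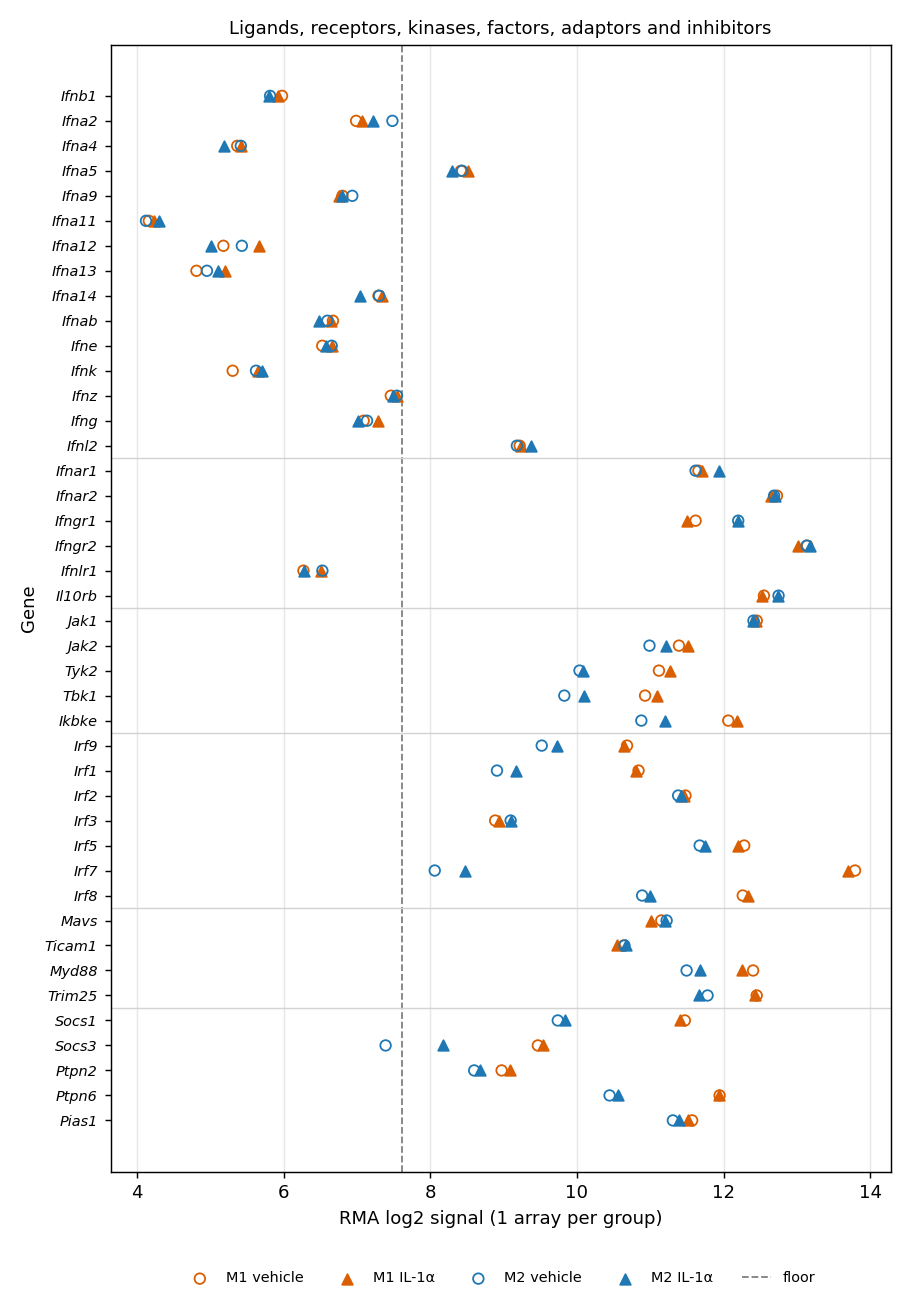
Log2 signal (x axis) of the 42 measured interferon pathway genes (y axis, grouped by role) on the 4 arrays, with the same marks and dashed floor line at 7.617 as for the antiviral genes. Of the interferon genes, Ifna5 and Ifnl2 lie right of the floor and the others left of it, the 4 marks of Ifnar2 nearly coincide, and Irf7 has the widest gap between M1 and M2.

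A second list held 44 other interferon-stimulated genes, 36 of them measured. Of the 33 at the floor under vehicle, 29 were at least 2-fold lower in M2 (6.83% of all genes) and 0 higher (7.03%), with a median of -1.90, and limma called 32 lower (29.3% of all genes). With IL-1α in M2, 1 of 28 was at least 1.5-fold higher, against 5 of 32 in the antiviral list and 0.875% of all genes, and the medians were 0.09 and 0.20. That gene was the chemokine Cxcl10, named here after its values were seen. It read 13.77 in M1 vehicle, 13.61 in M1 IL-1α, 6.95 in M2 vehicle, under the floor, and 8.59 in M2 IL-1α, and it is also a known target of NF-κB. The difference between the lists was not tested.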

How the data were processed

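The submitters measured 1 Affymetrix mouse gene array per sample. The authors deposited 1 log2 signal for each probe set and array. Per the submitters' processing notes, RMA and Affymetrix Expression Console were used. Versions and settings are not given in the sources used here, and the log base was taken from the values, which run from 3.09 to 14.47. RMA sets the arrays to a common distribution, so a global difference in RNA output cannot be seen. Of 35556 probe sets, 21789 carried 1 gene and were averaged per gene. Each of the 33 genes had 1 such probe set. Symbols were checked against RefSeq (GRCm38.p6).

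A call of higher or lower needed a difference of at least 1 and a signal at the floor (7.617) on at least 1 array compared. The additive model used limma 3.58.1 in R 4.3.3 (lmFit, eBayes with trend, 10.05 prior degrees of freedom), with Benjamini-Hochberg adjustment over 10625 genes at 0.05. It was tested on simulated data with independent noise of equal SD and additive phenotype effects only. Such data cannot show how the model fares with non-additive responses or with spread between cultures. The number of arrays limits the precision. The genes, the lists and the alternatives were chosen with earlier results of these data known. Pathway genes named are the 6 with the largest difference per comparison at the floor, plus Ifnb1, Ifna5, Ifnar1, Ifnar2, Ifngr1 and Irf9. From other lists, Ifit3b, Cxcl10, Aif1, Tcf4, Cox6a2 and the 5 dendritic cell markers were named. These additions were chosen after their values were seen. Promoters shown are the 4 genes with the largest M2 response and the 3 others with the largest vehicle difference that RefSeq's table holds.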

Additional observations from a re-analysis of the deposited data

Results flagged for a closer look

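In 9 of the 33 genes the single M1 array with IL-1α moved down and the single M2 array moved up, so the responses had opposite signs. This difference was not tested, and 49.0% of the 10625 genes had opposite signs. The M2 minus M1 response was 0.37 for Rtp4, 0.33 for Oasl1, 0.32 for Ifi27, 0.31 for Ifi35, 0.26 for Helz2, 0.26 for Bst2, 0.24 for Adar, 0.22 for Dtx3l and 0.16 for Zbp1. The M1 part of each was small, from -0.13 for Oasl1 to -0.01 for Rtp4, and the SD over genes of the M1 difference was 0.11. The opposite signs held under loess centring, quantile normalisation on top of RMA and the brightest probe set in 7 of the 9, and were lost in at least 1 of them for Zbp1 and Rtp4.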

How the results depend on the processing

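Results were recomputed with loess centring, with quantile normalisation on top of RMA, with the brightest probe set of a gene, without a floor, with the floor raised to the 75th percentile (9.635), at 1.5-fold, and, for limma, with robust eBayes or no trend. At 1.5-fold, 5 genes were higher with IL-1α in M2 and 5 in the difference of responses. With the floor at 9.635, 0 were higher with IL-1α in M2, because Ifit1 and Ifit3 read under it on both M2 arrays. With signals under the floor raised to it, an alternative chosen after seeing the data, 0 were 2-fold higher with IL-1α in M2 and 0 in the difference of responses, and 5 were 1.5-fold higher in each. Robust eBayes left Ifit1 and Ifit3 without the phenotype call. Their effects were unchanged, and their SEs were 0.526 and 0.517, against 0.184 and 0.18 in the main fit. The counts of 32 lower and 1 higher between phenotypes were the same in each pairwise alternative. The median M2 response ran from 0.13 to 0.20, and the values of Ifit3 from 0.96 to 1.20 and Ifit1 from 0.81 to 1.14. Isg20 in M2 turned from 0.02 to -0.05 under loess centring, and 5 genes turned below 0 in the difference of responses under at least 1 scaling, the lowest being Ifih1 (-0.12). No paired analysis was possible because each group holds 1 array. Signals near or under the floor limit the sizes of the Ifit and Mx differences in M2.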
